A study of Mus musculus with 6 samples.

Results

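The transcripts described here are the products of 10 immediate-early response genes, *Fos*, *Fosb*, *Jun*, *Junb*, *Jund*, *Atf3*, *Nr4a1*, *Ier2*, *Ier3* and *Dusp1*, in healing mouse tendon. They were chosen by symbol as a readout of acute stress at harvest, and all 10 were found once each among the 53819 genes in the count table. RNA was sequenced from flexor digitorum longus (FDL) tendons, the deep flexors of the hind toes, of 3 DTR ScxLin mice and 3 wildtype littermates, with 1 tendon per library. The tendons were transected and repaired in male and female mice of 10 to 12 weeks, and were harvested at D28 post-surgery (the sample titles write post-depletion). DTR ScxLin mice (Scx-Cre+; DTR F/+, here DTR) carry a diphtheria toxin receptor allele at the Rosa locus that is silent until Cre removes a stop cassette, so that every cell with a history of *Scx-Cre* activity, the broad *Scx* lineage, becomes sensitive to diphtheria toxin (DT). Littermate controls (Scx-Cre-; DTR F/+, here WT) carry the same silent allele without Cre. Mice of both genotypes received 5 daily injections of DT from D14 to D18. The libraries therefore differ in genotype and share the surgery, the toxin and the receptor allele, and no uninjured tendon and no mouse without DT is among them.

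Immediate-early genes are switched on within minutes of a stimulus, without new protein synthesis, by transcription factors that are already present in the cell and are activated by MAP kinases, calcium or cAMP. Their transcripts are short-lived, so their level in a tissue reflects the recent past of its cells, and handling, dissection and tissue dissociation are known to raise them. In tendon, mechanical loading and growth factors are known inducers of several of them.

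The 6 libraries held between 42744138 and 48854310 counts on genes. All 15 tendon cell markers, *Scx* and *Tnmd* among them, were detected, and they held between 5.37 and 7.39% of the counts of a library. Skeletal muscle markers held between 2.29 and 3.15% in the WT libraries but 0.398, 2.78 and 0.755% in DTR 1, 2 and 3, and keratinocyte markers held 0.357 and 0.221% in WT 1 and 2 and no more than 0.0359% elsewhere. WT 3 and DTR 2 stood apart from the other 4 libraries in genes of the circadian clock, with 7130 and 6806 normalized counts of *Dbp* (a clock output gene, chosen after its values were seen) against 1877 to 2812, and 296 and 334 of *Npas2* against 1334 to 1801. The study states that harvests were done in the morning, and gives no hour for a sample. These libraries are in different groups, and the calls and medians that turn without them are given with and without them. In bulk tissue, fewer cells of a type and less RNA per cell cannot be told apart.

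The promoters of 5 of the genes are shown because 4 of them (*Fos*, *Nr4a1*, *Fosb* and *Dusp1*) shared the same ranking of libraries within each genotype, while *Ier3* was the single member whose groups did not overlap. Each is the window of 300 bases from 250 before to 50 after the gene's start, on the gene's strand, from RefSeq on GRCm38.p6: *Fos* on the plus strand of chr12:85473640-85473939, *Nr4a1* on the plus strand of chr15:101266596-101266895, *Fosb* on the minus strand of chr7:19309996-19310295, *Dusp1* on the minus strand of chr17:26508423-26508722 and *Ier3* on the plus strand of chr17:35821463-35821762. Capitals mark TGACG on either strand (written CGTCA where it lies on the opposite strand), the core of the cAMP response element to which CREB and ATF proteins bind, and the palindrome TGACGTCA in full where it is present.
Fos: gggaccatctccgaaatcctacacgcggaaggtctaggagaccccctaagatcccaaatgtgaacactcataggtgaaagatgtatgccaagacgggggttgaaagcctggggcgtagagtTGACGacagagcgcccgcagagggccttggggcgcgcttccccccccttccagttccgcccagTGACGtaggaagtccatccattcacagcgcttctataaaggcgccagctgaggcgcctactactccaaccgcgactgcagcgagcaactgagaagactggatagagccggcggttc
Nr4a1: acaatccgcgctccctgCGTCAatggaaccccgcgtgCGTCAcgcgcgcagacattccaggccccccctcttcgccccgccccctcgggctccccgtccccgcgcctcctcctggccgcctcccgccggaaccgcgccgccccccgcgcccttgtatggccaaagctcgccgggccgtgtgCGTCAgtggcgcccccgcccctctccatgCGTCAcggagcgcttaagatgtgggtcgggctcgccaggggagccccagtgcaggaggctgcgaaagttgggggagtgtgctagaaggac
Fosb: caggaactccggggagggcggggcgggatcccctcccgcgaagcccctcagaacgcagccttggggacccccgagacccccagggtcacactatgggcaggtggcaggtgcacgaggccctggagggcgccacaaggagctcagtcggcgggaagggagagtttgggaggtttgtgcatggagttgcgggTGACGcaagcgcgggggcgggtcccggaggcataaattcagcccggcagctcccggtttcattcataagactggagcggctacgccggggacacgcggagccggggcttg
Dusp1: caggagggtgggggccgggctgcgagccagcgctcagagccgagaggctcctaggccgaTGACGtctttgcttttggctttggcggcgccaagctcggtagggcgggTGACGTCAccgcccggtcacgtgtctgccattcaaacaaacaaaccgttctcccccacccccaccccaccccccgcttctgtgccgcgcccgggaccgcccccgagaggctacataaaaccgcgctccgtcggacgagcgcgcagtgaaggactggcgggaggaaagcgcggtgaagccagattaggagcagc
Ier3: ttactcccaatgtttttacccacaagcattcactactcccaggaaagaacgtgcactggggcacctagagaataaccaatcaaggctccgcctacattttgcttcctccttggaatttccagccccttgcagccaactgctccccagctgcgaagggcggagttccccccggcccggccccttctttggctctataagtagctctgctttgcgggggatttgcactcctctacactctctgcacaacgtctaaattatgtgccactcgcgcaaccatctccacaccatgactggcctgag

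TGACG was present in 6 of the 9 members matched in the RefSeq table (all but *Ier2*), against 20.8% of the 32851 promoters of the same length. It was present 4 times in *Nr4a1*, 3 times in *Dusp1* and 2 times in *Fos*, and 5.01% of all promoters held it more than once. The palindrome TGACGTCA was counted once on each strand. TGACG was present 1 time each in *Fosb*, *Junb* and *Atf3*, and 0 times in *Ier3*, *Jun* and *Jund*. The RefSeq window of *Jund* lies upstream of the gene's start in GENCODE and may not hold its promoter. In *Dusp1*, 2 of the 3 matches were the 2 strands of 1 whole palindrome, TGACGTCA, which 1.79% of promoters held. The AP-1 site TGANTCA, to which FOS and JUN dimers bind, was in 7.81% of promoters and in 0 of the 9, and the CArG box of serum response factor was in 1.63% and in 0 of the 9, which says only that these letters are not in these windows. TATAA, the TATA box core, was present in *Fos*, *Junb* and *Ier3* and in 17.5% of promoters on the strand of the gene, and in the same 3 members and 24.9% of promoters when either strand was counted.

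*Fos* and *Fosb* encode FOS family proteins, which form the AP-1 transcription factor with a JUN partner. *Fos* was at 3463, 2448 and 1405 normalized counts in WT 1, 2 and 3 and at 2576, 3883 and 3619 in DTR 1, 2 and 3. WT 3 was the lowest of all libraries and DTR 2 the highest, but WT 1 lay among the DTR tendons, so the groups overlapped. The means were 2439 ± 1029 in WT and 3359 ± 692 in DTR (SD, n = 3 each), a log2 fold change of 0.46 with a 95% interval from -0.44 to 1.37 (SE 0.36, edgeR's quasi-likelihood test, Benjamini-Hochberg adjusted p = 0.654). *Fosb* was at 812, 335 and 198 normalized counts in WT and at 324, 492 and 412 in DTR. Both its highest and its lowest library were WT, 4.09-fold apart, and every DTR value lay between them. Its log2 fold change was -0.13 with an interval from -1.46 to 1.19 (SE 0.53, edgeR's adjusted p = 0.948), the widest interval of the 10 genes.

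*Jun*, *Junb* and *Jund* encode the JUN family, the obligate partners of FOS proteins in AP-1. *Jun* was at 5373, 4798 and 3995 normalized counts in WT and at 5561, 4583 and 4492 in DTR. The groups overlapped almost completely, and the log2 fold change was 0.05 with an interval from -0.27 to 0.36 (SE 0.13, edgeR's adjusted p = 0.923). *Junb* was at 2874, 2593 and 2062 in WT and at 3774, 2572 and 2284 in DTR. DTR 1 was above all the others and the remaining DTR tendons lay within the WT range, for a log2 fold change of 0.20 with an interval from -0.32 to 0.71 (SE 0.21, edgeR's adjusted p = 0.756). *Jund*, a family member with high basal expression in many resting cells, was at 3431, 4615 and 3904 in WT and at 4109, 3456 and 3312 in DTR. It ranked the WT tendons differently from the other JUN genes, with WT 2 highest, and its log2 fold change was -0.14 with an interval from -0.45 to 0.17 (SE 0.13, edgeR's adjusted p = 0.719). In the GENCODE vM21 annotation, *Jun* overlaps the antisense gene *Junos* (on average 94 normalized counts), *Jund* overlaps the antisense gene Gm11175 (17) and *Junb* overlaps *Prdx2* on the opposite strand (6905). Whether reads were counted by strand is not given in the sources used here, so reads of these genes may not be told apart from those of their neighbours.

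*Atf3*, a transcription factor of the ATF and CREB family that is induced by many kinds of cell stress, was at 737, 697 and 733 normalized counts in WT and at 696, 858 and 600 in DTR. The WT tendons lay within 1.06-fold of each other and within the range of the DTR tendons. The means were 722 ± 22.1 and 718 ± 130 (SD, n = 3 each), with a log2 fold change of -0.01 and an interval from -0.34 to 0.32 (SE 0.14, edgeR's adjusted p = 0.988). *Nr4a1*, which encodes an orphan nuclear receptor that is controlled mainly through its own transcription, was at 1405, 1243 and 901 in WT and at 1237, 1498 and 1419 in DTR. WT 3 was the lowest and DTR 2 the highest, as in *Fos*, and the log2 fold change was 0.23 with an interval from -0.16 to 0.62 (SE 0.17, edgeR's adjusted p = 0.623).

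*Ier2* and *Ier3* are immediate early response genes named for their rapid induction, and *Ier3* is also known as a target of NF-kB that affects cell survival. *Ier2* was at 1349, 1110 and 950 normalized counts in WT and at 1398, 1378 and 1296 in DTR. The 3 DTR values were close to each other, within 1.08-fold, and 1 of them lay below WT 1, so the groups overlapped by that library. The log2 fold change was 0.26 with an interval from -0.05 to 0.57 (SE 0.13, unadjusted p = 0.0901 and adjusted p = 0.503 in edgeR's quasi-likelihood test). *Ier3* was at 975, 926 and 1000 in WT and at 1622, 1846 and 1099 in DTR. Every DTR tendon was above every WT tendon, although DTR 3 was above WT 3 by less than the spread within DTR. The means were 967 ± 37.3 and 1522 ± 383 (SD, n = 3 each), and the log2 fold change was 0.66 with an interval from 0.23 to 1.08 (SE 0.18, unadjusted p = 0.00792 and adjusted p = 0.347 in edgeR's quasi-likelihood test). With the muscle level as a covariate its log2 fold change was 0.83 (adjusted p = 0.643 in edgeR), and without WT 3 and DTR 2 it was 0.50 (adjusted p = 0.243). Neutrophil markers held 0.0245, 0.00472 and 0.00295% of counts in DTR 1, 2 and 3 against 0.00199 to 0.00432% in WT, and the part of neutrophils in the result was not tested.

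*Dusp1* encodes a dual-specificity phosphatase that switches off MAP kinases and so limits the response that induced it. It was at 6097, 4543 and 3356 normalized counts in WT and at 4530, 5471 and 4701 in DTR. As in *Fosb*, WT 1 and WT 3 were the extremes and the DTR tendons lay between them. The log2 fold change was 0.07 with an interval from -0.44 to 0.58 (SE 0.21, edgeR's adjusted p = 0.928). *Dusp1* overlaps *Ergic1* on the opposite strand (4696 normalized counts).

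**Figure D1:**
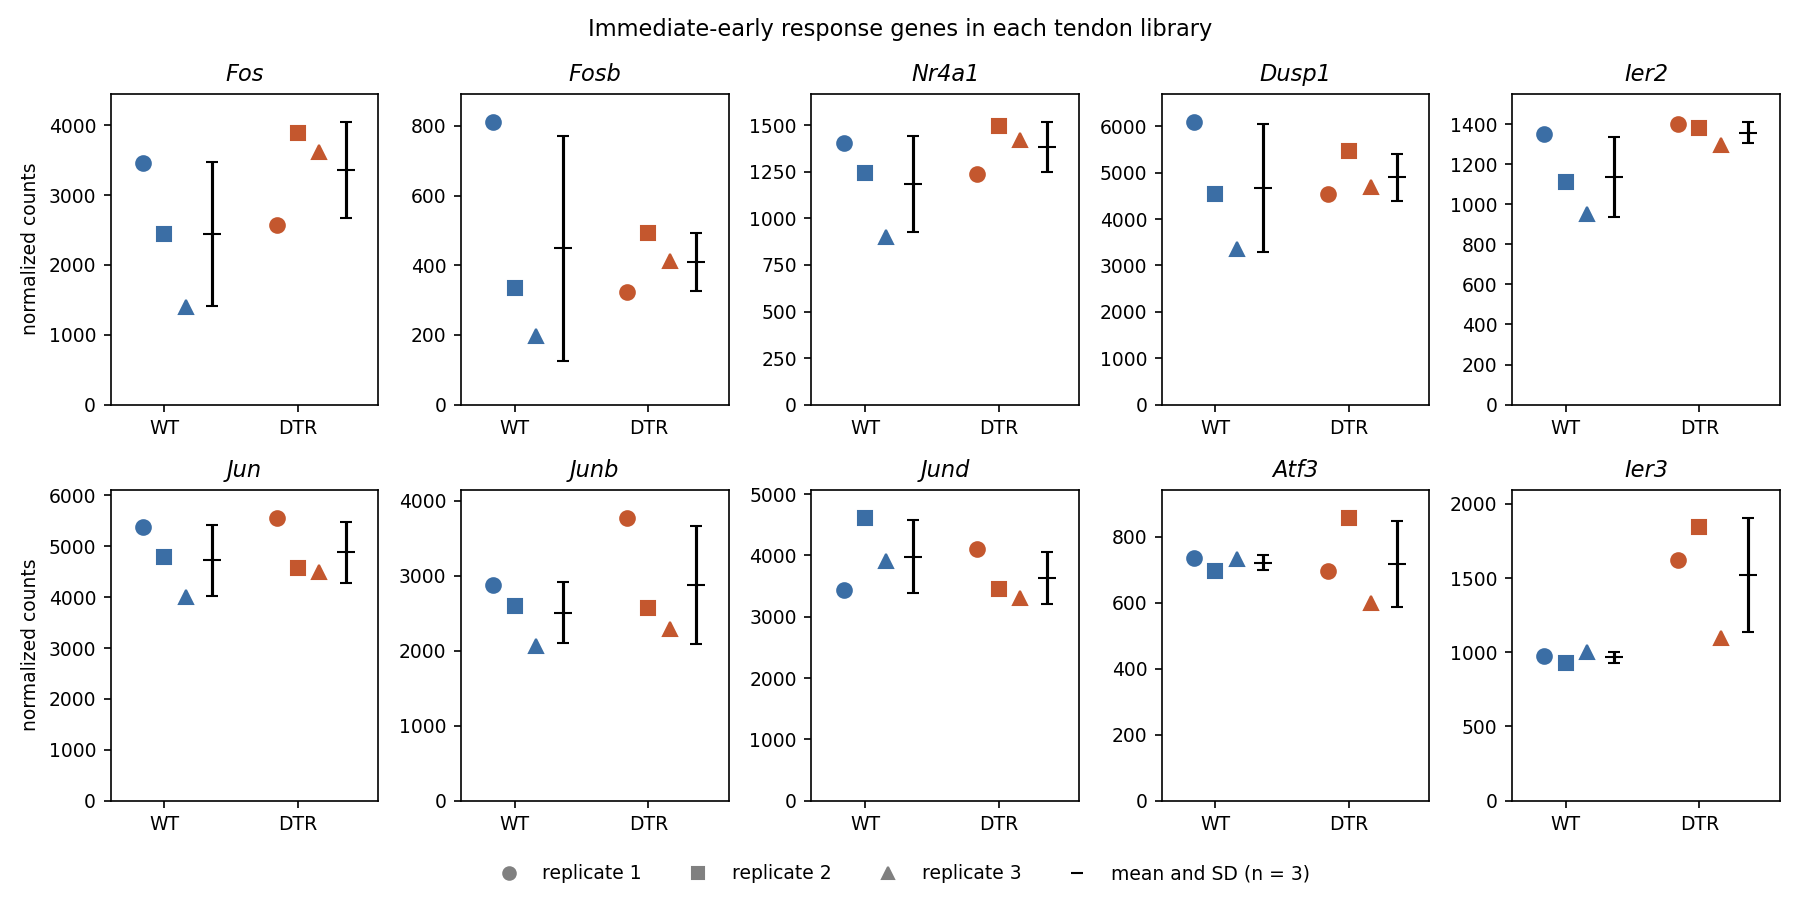
Normalized counts (y axis, from 0) of the 10 genes in each WT (blue) and DTR (orange) tendon, with symbols for the replicate number and a black mark for the mean with its SD (n = 3 each). *Ier3* is the one gene with every DTR value above every WT value, while for *Fosb* and *Dusp1* the WT values span all DTR values.

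For none of the 10 genes was a change called by edgeR's quasi-likelihood test, which called 0 of the 17496 genes tested higher and 0 lower (0% in each direction, with a smallest adjusted p of 0.199). At an unadjusted p under 0.05, 1 of the 10 passed, *Ier3*, against 11.0% of all genes (1918 genes). DESeq2 called the same gene higher, with an adjusted p of 0.0356 and a log2 fold change of 0.65, where it called 197 genes or 1.12% of those with an adjusted p higher, and limma-voom called 0. The groups did not overlap for 1 of 10 with DTR above, against 8.96% of all genes, and for 0 of 10 with DTR below, against 7.85%. The shares by unadjusted p and by overlap are near the background of the table. Of the 10 genes, 7 had a fitted value above 0, as had 51.5% of all genes, and the median log2 fold change was 0.13 against 0.01 over all genes. Without WT 3 and DTR 2 together the median was -0.02, and *Fos*, *Nr4a1* and *Dusp1* had log2 fold changes of 0.06, -0.01 and -0.22. Without WT 1 alone it was 0.34, with 0.80 for *Fos* (unadjusted p = 0.048 and adjusted p = 0.662 in edgeR's quasi-likelihood test) and 0.40 for *Ier2* (unadjusted p = 0.0111, adjusted p = 0.563). *Ier3* kept a log2 fold change between 0.49 and 0.84 and an unadjusted p under 0.05 in all 18 alternatives run, with an adjusted p between 0.0356 and 0.838.

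**Figure D2:**
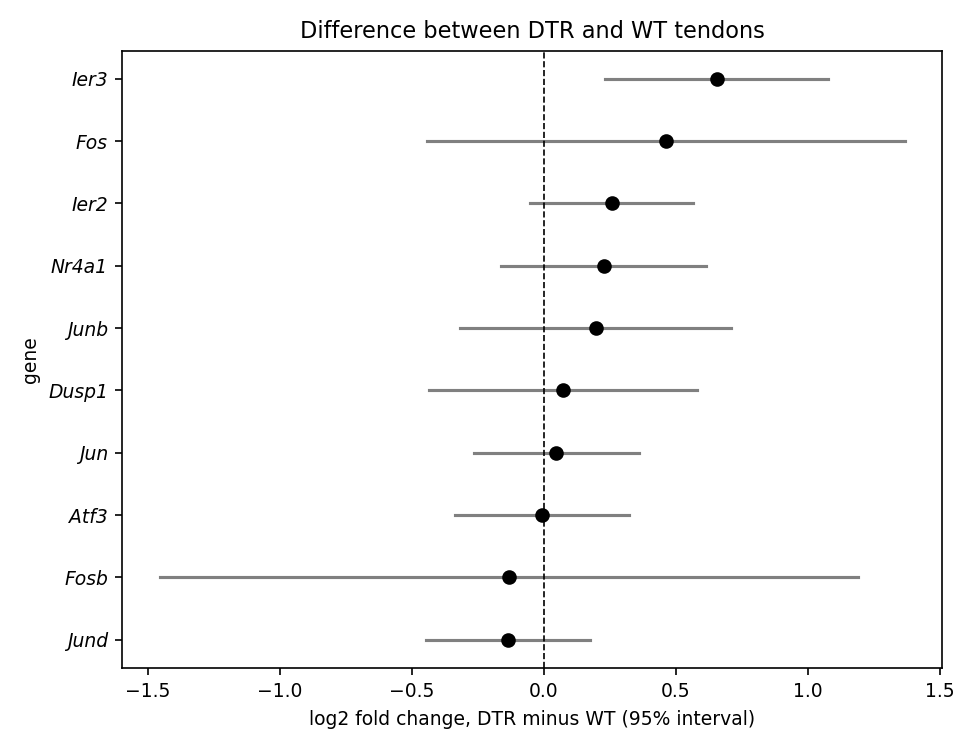
Log2 fold change of DTR against WT (x axis) for each of the 10 genes (y axis), as points with their 95% intervals from edgeR. The interval of *Ier3*, from 0.23 to 1.08, is the single one that does not reach 0, and that of *Fosb* is the widest.

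Several of these genes differed widely between tendons of one genotype. Across WT, the highest library was above the lowest by 4.09-fold for *Fosb*, 2.47-fold for *Fos*, 1.82-fold for *Dusp1* and 1.56-fold for *Nr4a1*, but by 1.08-fold for *Ier3* and 1.06-fold for *Atf3*. Across DTR the order changed, with 1.68-fold for *Ier3*, 1.65-fold for *Junb*, 1.52-fold for *Fosb*, 1.51-fold for *Fos* and 1.08-fold for *Ier2*. The coefficient of variation that edgeR estimated between tendons of a genotype was above the trend for genes of like abundance in 4 of 10, *Fos* (31.2% against 18.1%), *Fosb* (46.7% against 31.4%), *Junb* (20.7% against 18.2%) and *Dusp1* (20.5% against 17.9%), as it was in 15.4% of all genes. Counting error was small beside it: the lowest raw count of a member was 191, for *Fosb* in WT 3, where counting alone gives 7.24%.

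Within WT, 7 of the 10 genes (*Fos*, *Fosb*, *Jun*, *Junb*, *Nr4a1*, *Ier2* and *Dusp1*) had WT 1 highest, WT 2 between and WT 3 lowest, a ranking found in 21.3% of all genes tested. The same 7 genes had their lowest value of all 6 libraries in WT 3, as did 14.2% of all genes. With WT 3 set aside, 9 of the 10 were higher in WT 1 than in WT 2, as were 51.7% of all genes. Within DTR the 10 genes had 3 different rankings. *Fos*, *Fosb*, *Nr4a1* and *Dusp1* had DTR 2 highest, DTR 3 between and DTR 1 lowest. *Jun*, *Junb*, *Jund* and *Ier2* had DTR 1 highest, DTR 2 between and DTR 3 lowest. *Atf3* and *Ier3* had DTR 2 highest and DTR 3 lowest. With DTR 2 set aside, 6 of the 10 were higher in DTR 1 than in DTR 3, as were 50.2% of all genes. The mean deviation of the 10 genes from their own averages over the 6 libraries was taken in log2 CPM (counts scaled to a common library size). It was 0.19, -0.08 and -0.41 in WT 1, 2 and 3 and 0.10, 0.21 and -0.02 in DTR 1, 2 and 3. WT 3 was the library farthest from 0. Centring on all 6 libraries makes the group means equal and opposite, and leaves the difference between them unchanged. That difference was not tested.

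**Figure D3:**
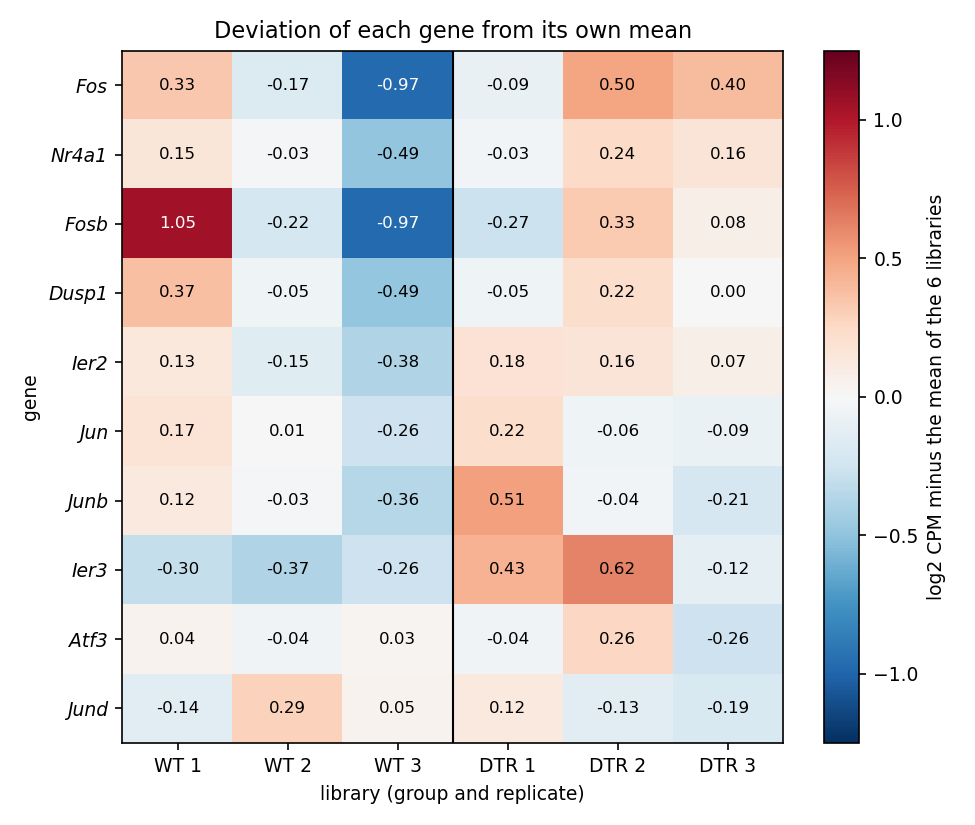
Log2 CPM of each gene (rows) minus its mean over the 6 libraries (columns), with WT to the left and DTR to the right of the black line. Red is above and blue below the mean, and the blue column of WT 3 reaches -0.97 for both *Fos* and *Fosb*, while *Atf3* and *Jund* are near their means there and *Ier3* is below its mean in all 3 WT tendons.

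Some marker shares followed the ranking of the WT tendons, and the clock gene *Dbp* is given beside them. Keratinocyte markers held 0.357, 0.221 and 0.00293% of the counts of WT 1, 2 and 3 and skeletal muscle markers 3.15, 2.90 and 2.29%, in the same order as the 7 genes. In DTR the keratinocyte share was 0.00152, 0.00266 and 0.0359%, and the tendon with the highest share was not the highest for any of the 10 genes. The skeletal muscle share was 0.398, 2.78 and 0.755% in DTR 1, 2 and 3, in the order of *Fos*, *Fosb*, *Nr4a1* and *Dusp1*. The other members did not have this order within DTR. *Dbp* was high in WT 3 and in DTR 2, but these were the lowest WT and the highest DTR tendon for *Fos*, so that the clock libraries stood at opposite ends. The part of cell makeup and of the clock in these values was not tested.

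Pairs of genes were compared over the 6 libraries in log2 CPM as a description. Both genotypes enter each value, and the libraries differ in tissue makeup and in clock genes, which all pairs share. *Fos* and *Nr4a1* had the highest Pearson's r, 0.994, with Spearman's rho = 0.943 and r = 0.991 without the 2 libraries farthest from the median of *Fos*. *Fosb* and *Dusp1* ranked the libraries identically (rho = 1.0), with r = 0.972, or 0.925 without 2 libraries. *Jun* and *Junb* also had rho = 1.0, with r = 0.93, or 0.902 without 2 libraries. *Fos* and *Jun*, partners in AP-1, had r = 0.457 and rho = 0.086, and the sign turned to r = -0.293 without 2 libraries. *Jund* and *Fos* had r = -0.574 and rho = -0.657, or r = -0.979 without 2 libraries.

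Per kilobase of exon in GENCODE vM21, which may not be the annotation used for the counts, the levels of the genes could be ordered. *Jund* was the highest with 2281 ± 301 normalized counts per kb (SD, n = 6 over both genotypes). *Jun* (1505 ± 183), *Dusp1* (1445 ± 282), *Fos* (1233 ± 396), *Junb* (1170 ± 260) and *Ier3* (1100 ± 344) followed, and each of these neighbours was closer to the next than its SD. *Ier2*, at 819 ± 118, was below *Ier3* by less than the SD of *Ier3*. *Nr4a1* (366 ± 61.1) and *Atf3* (334 ± 38.8) also lay within an SD of each other, and *Fosb* was the lowest with 68.7 ± 33.9 per kb. The range of *Fos*, from 597 to 1651 per kb, was wide enough to cross the levels of *Jun*, *Dusp1*, *Junb*, *Ier3* and *Ier2*.

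Of 55 further genes of the immediate-early class, 53 were found in the count table. All 53 passed the filter on low counts, and edgeR called 0 of them in either direction. At an unadjusted p under 0.05, 5 were higher (*Egr2*, *Ccn1*, *Ptgs2*, *Cxcl1* and *Cxcl2*), where 5.52% of all genes were, and 1 was lower (*Klf4*), where 5.45% were. Both directions together make 11.3% of the list and 11.0% of all genes. Their median log2 fold change was 0.12, and 38 of 53 (71.7%) were fitted above 0, against 51.5% of all genes. DESeq2 called 4 of the 53 higher, where it called 1.12% of all genes higher. The ranking of WT libraries was shared by 25 of the 53 (47.2%, against 21.3% of all genes), and 20 (37.7%, against 14.2%) had their lowest value in WT 3. Within DTR, 14 of the 53 (26.4%, against 35.5% of all genes) were highest in DTR 2, as were 6 of the 10 members. DTR 1 was lowest in 9 (17.0%, against 34.8%). With DTR 2 set aside, 42 (79.2%, against 50.2%) were higher in DTR 1 than in DTR 3.

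*Cxcl2*, a neutrophil-attracting chemokine, had the largest log2 fold change of the list with all 6 libraries, and 89.3, 86.6 and 44.7 normalized counts in the WT tendons against 1522, 195 and 146 in the DTR tendons. The groups did not overlap, and DTR 1, the library with the most neutrophil marker counts, was far above the other two. The log2 fold change was 3.07 with an interval from 0.11 to 6.04 (SE 1.14, edgeR's adjusted p = 0.452), and DESeq2 gave no p. Without DTR 1 it was 1.21 (adjusted p = 0.576 in edgeR), below the 1.35 of *Ptgs2* in the same fit. *Ptgs2*, which encodes the inducible cyclooxygenase, was at 312, 156 and 114 in WT and at 1020, 515 and 474 in DTR, again with DTR 1 highest. Its log2 fold change was 1.79 (SE 0.49, adjusted p = 0.354 in edgeR and 0.000415 in DESeq2). *Nr4a3*, a paralog of *Nr4a1*, and *Gadd45a*, a growth arrest gene, had the smallest values, with log2 fold changes of -0.45 and -0.37 and adjusted p of 0.55 and 0.876 in edgeR. *Gadd45a* varied widely between tendons, from 1310 to 4254 in WT and from 892 to 3244 in DTR.

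4 more genes of the list were taken up after their values were seen. *Egr1*, which encodes a zinc finger factor that serum and load induce and that is also on the tendon cell list, was at 7748, 4476 and 3419 normalized counts in WT and at 7928, 8182 and 7932 in DTR. Every DTR tendon was above every WT tendon, but WT 1 was close to them, and the log2 fold change was 0.62 with an interval from -0.11 to 1.35 (SE 0.30, edgeR's adjusted p = 0.492). *Egr2*, its paralog, was at 447, 369 and 288 in WT and at 581, 679 and 590 in DTR. No WT tendon reached the lowest DTR tendon, and the log2 fold change was 0.74 (SE 0.18, adjusted p = 0.30 in edgeR and 0.0137 in DESeq2). *Ccn1*, a matricellular protein gene induced by serum and stretch, had a log2 fold change of 0.75 with groups that overlapped (SE 0.23, adjusted p = 0.371 in edgeR and 0.0219 in DESeq2). *Cxcl1*, a second neutrophil-attracting chemokine, had 1.56 with groups that did not (SE 0.37, adjusted p = 0.301 in edgeR and 0.000967 in DESeq2).

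**Figure D4:**
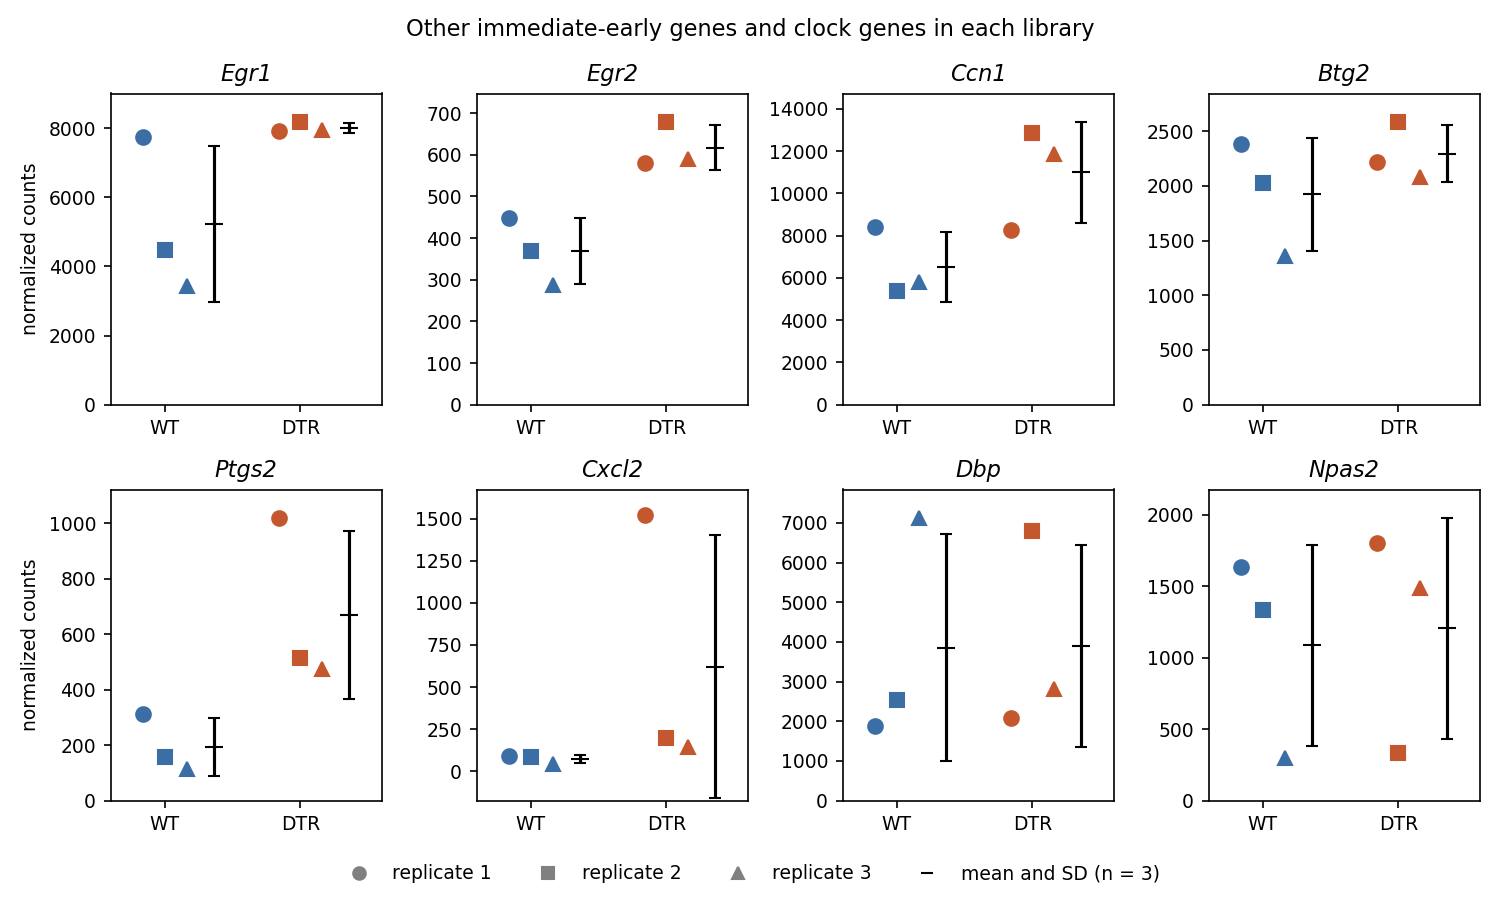
Normalized counts (y axis) of 6 other immediate-early genes and 2 clock genes in each WT (blue) and DTR (orange) tendon, with the mean and SD (n = 3 each) in black. *Egr1* and *Egr2* sit higher in every DTR tendon than in any WT tendon, *Cxcl2* is far higher in DTR 1 (1522) than in DTR 2 and 3 (195 and 146; its SD reaches below 0), and *Dbp* and *Npas2* set WT 3 and DTR 2 apart.

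The genes most like the 10 were sought among 14399 genes with at least 50 normalized counts on average, by the correlation of their log2 CPM with the mean deviation over the 6 libraries. *Siglec1*, a sialic acid receptor of macrophages, came first with r = 0.992, followed by *Btg2* (0.986), itself an immediate-early gene that slows the cell cycle, *Dennd1b* (0.979), *Tnfrsf14* (0.973) and *Gm6377* (0.971). *Btg2* was at 2383, 2030 and 1364 normalized counts in WT and at 2215, 2587 and 2085 in DTR, with WT 3 lowest and DTR 2 highest of all libraries, as in *Fos*. The opposite pattern was closest in *Cnp* (r = -0.989), *Tal1* (-0.988), *Tinagl1* (-0.988), *Gimap4* (-0.987) and *A330009N23Rik* (-0.987). Because 6 libraries and many genes enter this ranking, values near 1 and -1 describe these libraries only.

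The genes that act up- and downstream of the immediate-early response were then described by list. Of 14 AP-1 partners, edgeR called 0. The largest log2 fold changes were those of *Fosl1* (0.42) and *Jdp2* (0.23), both of which encode further AP-1 proteins, and the smallest those of *Batf3* (-0.68, unadjusted p = 0.0269 and adjusted p = 0.421 in edgeR) and *Cebpg* (-0.15). Their median was -0.02.

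Serum response factor, its ternary complex partners and CREB proteins, the factors that sit on immediate-early promoters before a stimulus, gave 0 of 13 called and 0 at an unadjusted p under 0.05. *Elk1* and *Atf1* had log2 fold changes of 0.20 and 0.17, and *Myocd*, a cofactor of serum response factor in muscle, and *Crtc2*, a cofactor of CREB, -1.01 and -0.20. The median was -0.01. *Myocd* was at 49.7 to 110 normalized counts in WT and 15.4 to 54.6 in DTR, a low level whose groups overlapped.

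MAP kinases and their activators numbered 21, of which edgeR called 0 and 3 were lower at an unadjusted p under 0.05 (*Mapk14*, *Map2k3* and *Map2k7*), where 5.45% of all genes were. *Map2k3*, which activates p38 kinases, was at 5140, 4832 and 3460 normalized counts in WT and at 2326, 3442 and 2405 in DTR. Its DTR values were all below its WT values, DTR 2 by a small margin, and the log2 fold change was -0.72 (SE 0.21, adjusted p = 0.354 in edgeR and 0.0219 in DESeq2, which called 1.53% of all genes lower). Its highest DTR value was in DTR 2, the DTR library with the highest muscle share, and with the muscle level as a covariate the log2 fold change was -0.36 (adjusted p = 0.791 in edgeR). Without DTR 2, edgeR called *Map2k3* lower (-0.92, adjusted p = 0.0466), as it called 2.45% of all genes and 20 of 30 skeletal muscle markers. Without WT 3 and DTR 2 it called *Map2k3* (-1.09, adjusted p = 0.00515) and *Mapk13* (adjusted p = 0.0342), as it called 3.03% of all genes and 19 of the muscle markers. *Mapk13* had the smallest log2 fold change, -2.27 (adjusted p = 0.477 in edgeR), with 768, 389 and 56.1 in WT and 92.7, 44.9 and 114 in DTR, and its WT values were in the order of the keratinocyte share. Without WT 1 its log2 fold change was -1.41 (adjusted p = 0.746). *Mapk11* and *Map2k6* had 0.23 and 0.14.

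Of 17 feedback inhibitors of MAP kinase signalling, the class to which *Dusp1* belongs, edgeR called 0, and the median log2 fold change was -0.02. At an unadjusted p under 0.05 in edgeR, 1 was higher (*Spred1*), where 5.52% of all genes were. In the other direction 1 was lower (*Dusp14*, -0.41, named after its value was seen), where 5.45% were. *Spred1*, an inhibitor of RAS and RAF signalling, was at 4908, 4609 and 4956 normalized counts in WT and at 6367, 5766 and 5269 in DTR, with no overlap and a log2 fold change of 0.27 (SE 0.09, unadjusted p = 0.0223 and adjusted p = 0.405 in edgeR). *Dusp5* had a log2 fold change of 0.34 and the ranking of the 7 immediate-early genes in WT, with 306, 170 and 104. *Dusp10* and *Dusp2*, phosphatases of the same family as *Dusp1*, had -0.51 and -0.45, with groups that overlapped. *Dusp10* was at 770, 808 and 719 in WT and at 365, 811 and 436 in DTR, so that DTR 2 alone was at the WT level. Without DTR 2, edgeR called it lower (-0.93, adjusted p = 0.0217), and without WT 3 and DTR 2 as well (-0.99, adjusted p = 0.0338). With the muscle level as a covariate its log2 fold change was 0.04 (adjusted p = 0.963), and without DTR 1 it was -0.30 (adjusted p = 0.798).

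**Figure D5:**
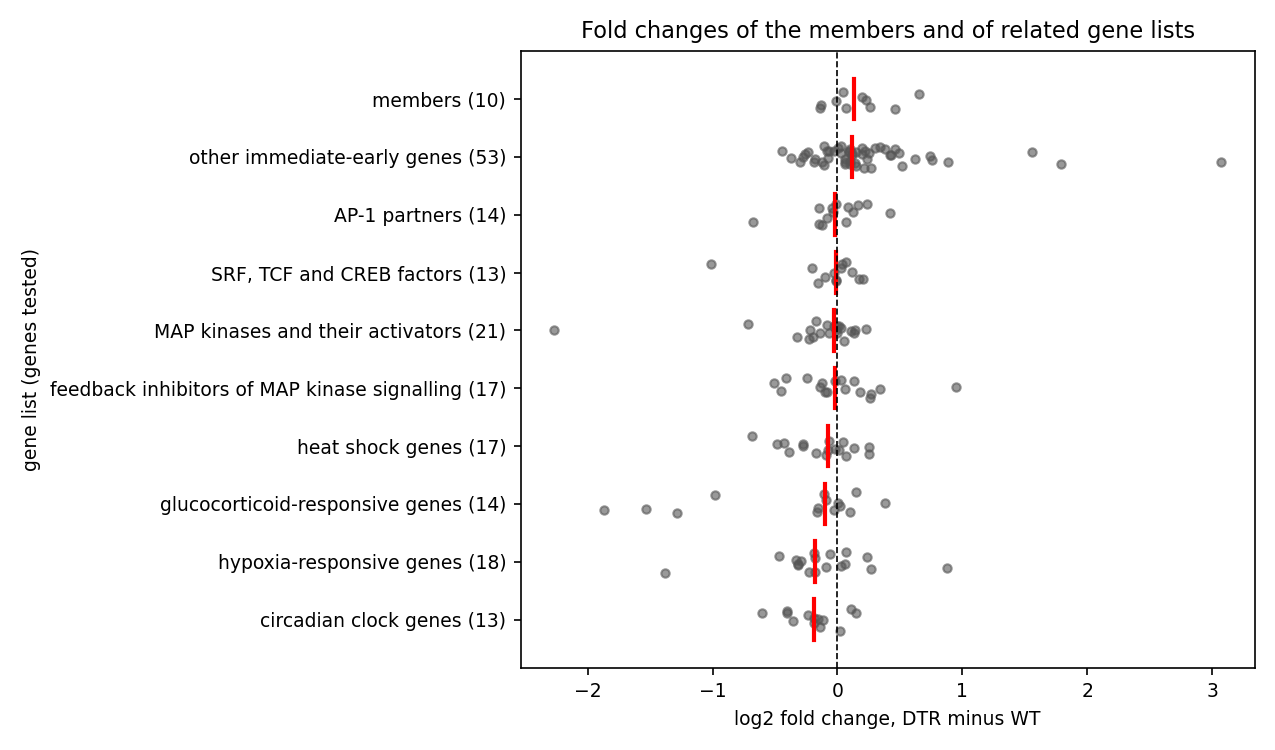
Log2 fold change of DTR against WT (x axis) of every tested gene in the members' list and in 9 related lists (y axis, number of genes in parentheses), each gene a grey point and each list's median a red line. The medians lie between -0.19 (circadian clock genes) and 0.13 (the 10 members), near the 0.01 of all genes.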

How the data were processed

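RNA was sequenced from 1 FDL tendon per library, 3 WT and 3 DTR, with the TruSeq Stranded mRNA kit; the labels also name a SMARTER kit. The authors ran FastP on the demultiplexed single-end reads, used featureCounts to obtain gene counts and deposited these as whole numbers, not normalized. A signal table, deposited beside them, holds normalized counts; it equals the counts divided by 1 constant per library (between 0.972501 and 1.064733), as DESeq2 1.22.1 of the processing notes would give. Aligner, genome build, annotation and strand setting are not given in the sources used here. Groups came from the sample titles, and columns were matched by their names. The labels call the tendons separate biological samples, 1 tendon each, and p-values measure the spread between them.

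The counts were analysed in R 4.3.3. Of 53819 listed genes, 30758 had a count and 17496 passed edgeR's filterByExpr. edgeR 4.0.16 gave TMM factors and a robust quasi-likelihood fit with genotype as the single term, which gave log2 fold changes (DTR minus WT), SE and p-values, the latter with Benjamini-Hochberg adjustment over all genes tested and a threshold of 0.05. DESeq2 1.42.0 and limma 3.58.1 were alternatives. Normalized counts are counts scaled to the mean effective library size. Between replicates the chi-square per degree of freedom ran from 40.3 to 205, so that no library repeats another. The fits were tested on simulated data. Where genes were changed by 1 log2 unit, edgeR recovered 44 of 98, DESeq2 58 of 99 and limma-voom 26 of 98. At 2 log2 units the same tests recovered 78 of 96, 80 of 101 and 73 of 96. Beside the genes recovered at both sizes, their false calls were 17 of 16963, 72 of 17296 and 12 of 16963 unchanged genes.

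The members and all gene lists were chosen with earlier results of these data known. The rule for named genes took the 10 members, the 2 largest and 2 smallest log2 fold changes of each related list among genes whose mean was 50 normalized counts or more, and the 5 genes most and least like the members. Genes named because they passed an unadjusted p, *Dbp*, *Egr1*, *Egr2*, *Ccn1* and *Cxcl1* were chosen after their values were seen. The related lists were other immediate-early genes, AP-1 partners, SRF, TCF and CREB factors, MAP kinases, feedback inhibitors, and heat shock, glucocorticoid, hypoxia and clock genes; marker lists were skeletal muscle, macrophage, neutrophil, lymphoid, endothelial, erythroid, keratinocyte, adipocyte and tendon cell. The alternatives were DESeq2, limma-voom, normalization by RLE, by upper quartile or by library size, no filter, a minimum of 10 counts per library, a replicate block, leaving out libraries one at a time, limma on log2(value + 1) of the deposited normalized counts, and removal of muscle genes. After the data were seen, a fit without WT 3 and DTR 2 and a muscle covariate were added.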

Additional observations from a re-analysis of the deposited data

How the results depend on the processing

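With n = 3 tendons per genotype, the interval of each gene, not the depth, limits the comparison. edgeR called 0 genes in either direction; DESeq2 called 197 higher and 269 lower, the fit without a filter on low counts 45 and 38, and the fit without WT 3 and DTR 2, chosen after the data were seen, 83 and 537. Leaving out 1 library gave between 0 and 103 higher and between 0 and 441 lower, the highest counts without DTR 2. With the replicate block, 0 genes were higher and 1 was lower; same-numbered tendons had correlations of -0.222, -0.179 and -0.71 in their deviations from the group means, so they share only a number. Of the members, DESeq2 called 1 and each of the other alternatives run 0. The median log2 fold change of the members, 0.134, was -0.021 without WT 3 and DTR 2 and ranged from 0.032 (without WT 3) to 0.341 (without WT 1) with 1 library left out. The cause of these shifts was not tested.

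Directions turned as follows, always at an adjusted p above the threshold. *Fosb* had 0.096 with limma-voom, 0.113 with the replicate block and 0.091 with the deposited normalized counts. With the muscle covariate, chosen after the data were seen, *Fosb* had 0.319, *Jun* -0.034, *Atf3* 0.188, *Fosl1* -0.055, *Jdp2* -0.038, *Dusp10* 0.041 and *Npas2* -1.448. Without WT 3 and DTR 2, *Jun* had -0.033, *Nr4a1* -0.01 and *Dusp1* -0.219. With 1 library left out, *Fosb* ranged from -0.49 to 0.62, *Jun* from -0.062 to 0.151, *Junb* from -0.052 to 0.34, *Atf3* from -0.15 to 0.11, *Dusp1* from -0.12 to 0.31, *Gadd45a* from -0.98 to 0.26, *Fosl1* from -0.041 to 0.618, *Errfi1* from -0.12 to 0.34, *Npas2* from -0.30 to 0.60, *Nr1d2* from -0.25 to 0.39 and *Arntl* from -0.839 to 0.035. In all, 159 of 180 values of the members kept direction and side of the threshold, 20 turned and 1 (*Ier3* in DESeq2) passed it. Without DTR 2, or without WT 3 and DTR 2, edgeR gained calls for genes named from the related lists. These were *Map2k3*, *Mapk13*, *Dusp10*, *Pdk4*, *Zbtb16*, *Egln3*, *Hspb8* and *Klf15*, given beside each gene or its list.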

Other observations

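Lists of other acute responses held no gene that edgeR called with all 6 libraries. At an unadjusted p under 0.05, 5.52% of all genes were higher and 5.45% lower, beside which the counts of each list stand. Of 17 heat shock genes, 1 was higher (*Dnaja1*) and 2 were lower (*Hspa1b* and *Bag3*) at an unadjusted p under 0.05, with a median log2 fold change of -0.07. Without DTR 2, and without WT 3 and DTR 2, edgeR called 1 of the 17 lower (*Hspb8*, named after its call was seen). In these fits 2.45 and 3.03% of all genes were called lower. *Hspa1b*, the stress-inducible HSP70, was at 423, 533 and 418 normalized counts in WT and at 293, 362 and 328 in DTR, with no overlap (log2 fold change -0.48, unadjusted p = 0.0182 and adjusted p = 0.389 in edgeR). *Dnaja1*, an HSP40 cochaperone, was above WT in every DTR tendon (0.25, adjusted p = 0.386 in edgeR). *Hsp90aa1* had 0.26, and *Cryab*, a small heat shock protein gene that muscle expresses strongly, had -0.68, with the WT range from 8049 to 13195 overlapping the DTR range from 4820 to 10092.

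Of 14 glucocorticoid-responsive genes, 1 was lower at an unadjusted p under 0.05 (*Klf15*, -1.29, named after its value was seen) and the median was -0.10. DESeq2 called the same gene lower, as it did 1.53% of all genes. *Pdk4*, a kinase that spares glucose, was at 3071, 3328 and 619 normalized counts in WT and at 406, 903 and 613 in DTR. Its WT values split, with WT 3 among the DTR tendons (log2 fold change -1.87, adjusted p = 0.464 in edgeR). *Zbtb16* had -1.53. Without WT 3 and DTR 2, edgeR called *Pdk4* (-2.66, adjusted p = 0.00976), *Zbtb16* (-2.63, adjusted p = 0.00515) and *Klf15* lower, and without DTR 2 alone it called *Zbtb16* (-2.54, adjusted p = 0.00298) and *Klf15*, where 3.03 and 2.45% of all genes were called lower. The same fits called 19 and 20 of 30 skeletal muscle markers lower. With the muscle level as a covariate, *Pdk4* had -1.13 (adjusted p = 0.895 in edgeR) and *Zbtb16* -0.66 (adjusted p = 0.733). *Per1* had 0.38 and *Errfi1* 0.15. Of 18 hypoxia-responsive genes, 5 were lower at an unadjusted p under 0.05 (*Ndrg1*, *Bnip3*, *Egln1*, *Pfkfb4* and *Mxi1*), which edgeR did not call, and the median was -0.18. *Bnip3*, a mitophagy receptor gene, was at 3029, 3169 and 2663 in WT and at 2221, 2463 and 1728 in DTR, with no overlap (-0.47, adjusted p = 0.354 in edgeR). *Egln3* had -1.38, and -2.47 without WT 3 and DTR 2, where edgeR called it lower (adjusted p = 0.00231), as it called 3.03% of all genes. With the muscle level as a covariate *Egln3* had -0.47 (adjusted p = 0.847 in edgeR). *Car9* had 0.88 and *Ankrd37* 0.27.

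Of 13 clock genes, 2 were lower at an unadjusted p under 0.05 (*Cry1* and *Cry2*). *Arntl*, the clock's activator, was at 3173, 2431 and 633 normalized counts in WT and at 2334, 531 and 1844 in DTR, and *Nr1d2*, one of its repressors, at 6513, 7068 and 11208 and at 6505, 12853 and 7375. The low *Arntl* and high *Nr1d2* libraries were WT 3 and DTR 2 in both genes. *Hlf* had a log2 fold change of -0.61 and *Npas2* of 0.15. In edgeR's fit with all 6 libraries, which called none of the markers, skeletal muscle markers were fitted lower in DTR in 29 of 30, keratinocyte markers in 14 of 14, adipocyte markers in 8 of 8 and erythroid markers in 5 of 5 tested, and neutrophil markers were fitted higher in 6 of 6 tested, macrophage markers in 12 of 20, lymphoid markers in 6 of 12, endothelial markers in 1 of 10 and tendon cell markers in 12 of 15. Of all genes tested, 51.5% were fitted higher. The neutrophil share was 0.0245% in DTR 1, but that of DTR 3 (0.00295%) was below WT 1 and WT 2 (0.00432 and 0.00387%). The keratinocyte share of WT 3, 0.00293%, lay within the DTR range. At an unadjusted p under 0.05, 7 of 8 adipocyte and 5 of 5 erythroid markers were lower. DESeq2 called 5 adipocyte markers, 4 erythroid markers and 1 macrophage marker lower and 1 tendon cell marker higher. Without DTR 2, edgeR called 20 of 30 skeletal muscle and 2 of 8 adipocyte markers lower, and without WT 3 and DTR 2 it called 19, 3 and 2 of the skeletal muscle, adipocyte and erythroid markers.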
